A study of Homo sapiens with 12 samples.

Results

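The genes described here are the protein-coding genes of human chromosome 19 whose symbol is ZNF followed by digits only. They were taken from the GENCODE annotation of hg38, and 240 of 20046 protein-coding genes met this rule. The measurements are lists of regions from ChIP-seq of H2A.Z and of acetylated H2A.Z (H2A.Zac) in K562, a cell line from a human chronic myeloid leukemia. Endogenous EP400 carried a degradation tag in both lines studied, and dTAG-V1 was given at 500 nM for 24 h to remove it. The WT line was complemented from the AAVS1 safe harbor with WT EP400, and the ΔTRRAP line with EP400 lacking the part that binds TRRAP. Each line is 1 clone, so an effect of the EP400 form and a difference between clones cannot be told apart. The 12 libraries comprise input, H2A.Z and H2A.Zac with 2 replicates in each line. For each mark the deposited lists hold regions that were lost in ΔTRRAP (higher in WT), gained in ΔTRRAP, or unchanged.

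Each region carries a single value, the authors' log10 likelihood ratio between the lines. The lowest ratio of a changed region was 3.10 and the highest of an unchanged region was 2.90. It is not a fold change, since deeply covered regions reach a higher ratio at the same change. The replicates had been merged, so no value per replicate, spread or test between the lines can be given, and how deeply the libraries were sequenced is not known from these lists. Ranges in parentheses after a share are 95% Wilson intervals and account for counting error alone. Of 158028 listed regions, 855 lay within 2 kb of the gene bodies of the ZNF genes on chromosome 19, of which 375 were H2A.Z and 480 were H2A.Zac regions. No H2A.Z region was listed there for 36 of the 240 genes, and no H2A.Zac region for 27.

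Most of these genes belong to the KRAB zinc finger family, which arose by repeated tandem duplication and lies in clusters along the chromosome. The proteins bind DNA through an array of C2H2 zinc fingers, and many recruit TRIM28 (KAP1) and the methyltransferase SETDB1 through a KRAB domain, which leads to H3K9 methylation at retrotransposons. The array is usually encoded by the last exon, and the 3' ends of these genes are themselves known to carry H3K9me3 laid down with the help of ZNF274. H2A.Z is a histone variant of nucleosomes that flank active TSSs. The TIP60/EP400 complex deposits it and, through the acetyltransferase TIP60, acetylates it, and TRRAP is a large scaffold subunit of that complex.

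The structure of the proteins was read from the hg38 coding sequences of the canonical transcripts. All 240 genes encoded at least 1 finger with the spacing C-x2-C-x12-H-x3-5-H, and the median was 12 fingers. The highest number was 36, in ZNF208. Of 2995 fingers, 2956 (98.7%) were encoded in the last exon, and 234 genes had their whole array there. A pattern for the KRAB A box, which misses degenerate copies, was matched in 167 genes (69.6%). The last exon had a median length of 3354.5 bp, and the gene a median of 25.45 kb. The 3' exon of these genes thus holds nearly the whole zinc finger array, and it was examined apart from the promoter, taken as 1 kb to each side of the TSS.

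The following sequences of hg38 are shown because the values below return to them. The 3 promoters with the highest ratios of lost H2A.Zac come first, then the promoters with the highest ratios of gained H2A.Zac, and last a coding stretch of the kind in which no region was found. The promoter sequences are the bases directly upstream of the TSS, up to the TSS of the neighboring gene for ZNF829. In the promoters, capitals mark the CCAAT box and the motif CCGGAAG, which on the opposite strand reads CTTCCGG, and in ZNF274 the bases of the linker of 5 residues that joins 2 fingers. All are written 5′ to 3′ on the strand of the gene.
ZNF554, lost, chr19:2819748-2819867, plus strand: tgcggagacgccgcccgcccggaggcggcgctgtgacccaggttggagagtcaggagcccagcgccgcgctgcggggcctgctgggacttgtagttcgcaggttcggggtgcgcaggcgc
ZNF600, lost, chr19:52786792-52786911, minus strand: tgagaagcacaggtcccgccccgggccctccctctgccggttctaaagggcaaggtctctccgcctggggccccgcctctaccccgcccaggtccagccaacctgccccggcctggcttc
ZNF766, lost, chr19:52269467-52269586, plus strand: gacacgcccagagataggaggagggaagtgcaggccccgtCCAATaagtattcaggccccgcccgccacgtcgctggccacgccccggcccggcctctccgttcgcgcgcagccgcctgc
ZNF829, gained, chr19:36916292-36916331, minus strand: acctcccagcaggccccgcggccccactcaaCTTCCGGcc
ZNF91, gained, chr19:23395472-23395591, minus strand: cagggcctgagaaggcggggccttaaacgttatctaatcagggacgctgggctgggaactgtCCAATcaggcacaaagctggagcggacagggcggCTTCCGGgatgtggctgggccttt
ZNF274, coding part of the last exon, chr19:58212748-58212852, plus strand: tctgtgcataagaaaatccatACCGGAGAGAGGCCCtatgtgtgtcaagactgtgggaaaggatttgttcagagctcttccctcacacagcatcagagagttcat
The ZNF554 stretch held 15 CpG dinucleotides and neither motif. The ZNF829 stretch is the whole interval between the divergent TSSs of ZNF829 and ZNF568.

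Most regions of both marks at the ZNF genes on chromosome 19 lay at their promoters (296 of 375 for H2A.Z, 361 of 480 for H2A.Zac), and few at their 3' exons. At least 1 H2A.Z region overlapped the promoter of 192 genes (80.0%, 74.5 to 84.6%), and at least 1 H2A.Zac region that of 205 (85.4%, 80.4 to 89.3%). Over all protein-coding genes these shares were 62.2% and 63.95%. The 236 ZNF genes on other chromosomes had 86.9% and 88.1%, and the 1236 other genes of chromosome 19 had 65.4% and 68.9%. For H2A.Zac, promoters of ZNF genes on chromosome 19 were thus occupied at close to the level of ZNF genes elsewhere. For H2A.Z their share was lower than the 86.9% elsewhere (82.0 to 90.6%), but the intervals overlap. Of the 48 promoters without an H2A.Z region, 20 lay in cluster 4, described further on, which holds 37 of the genes.

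At the 3' exon, an H2A.Z region was found in 2 genes (0.833%, 0.229 to 2.99%) and an H2A.Zac region in 3 (1.25%, 0.426 to 3.61%). The shares over all genes were 6.03% and 9.34%, and over the other genes of chromosome 19 they were 11% and 16.9%. The ZNF genes on other chromosomes also had few, at 2.54% (1.17 to 5.43%) and 4.66% (2.62 to 8.15%). In ZNF580 and ZNF324 these were unchanged regions that belong to the promoters of the next genes, ZNF581 and ZNF446, and reach back over the end of the exon. The only changed region was a lost H2A.Zac region of 681 bp with a ratio of 6.601 at the end of ZNF541 (chr19:47520017-47520697), a gene known for its role in male meiosis. It overlapped the exon by 8 bp only, and no changed region was left at the 3' exons where at least 25% of the region had to lie inside. For H2A.Z, 0 genes had a lost or gained region at the 3' exon (0%, with a Wilson interval up to 1.57%). The shares over all genes, 1.46% lost and 0.763% gained, lie within that interval. For H2A.Zac, 1 gene had a lost and 0 had a gained region, against 3.26% and 2.95% over all genes.

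No region of either mark overlapped the coding part of the last exon in any of the 240 genes (0%, with a Wilson interval up to 1.57%). These coding parts add up to 366.5 kb. Over all genes, an H2A.Z region was found in this part in 4.01% and an H2A.Zac region in 6.01%, and in the ZNF genes on other chromosomes in 1.27% and 2.54%. The finger arrays, exons upstream of the last included, were overlapped in 1 gene. This was again ZNF541, in which only 1 of 4 fingers lies in the last exon, with an unchanged H2A.Z region, a lost H2A.Zac region (ratio 7.82) and an unchanged H2A.Zac region. In the stretch of ZNF274 printed above, as in the rest of its array, none was listed.

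Arrays of paralogous genes resemble each other, and reads that fit several places can be lost from such lists. How often this could apply was measured, after the absence had been seen, as the share of all 100-base words that occur only once in hg38. It was 98.3% in the coding parts of the last exons, 98.2% in the finger arrays and 99.5% in the promoters. The lowest shares were 55.2% in a coding part and 42.2% in a finger array, both in ZNF98, and 2 finger arrays lay under 50%. The words have the length of the reads stated in the study's methods, which were paired-end. Exact words do not allow for mismatches or for the pairing of reads, so the part of mapping in the absence of regions was not tested beyond this.

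**Figure D1:**
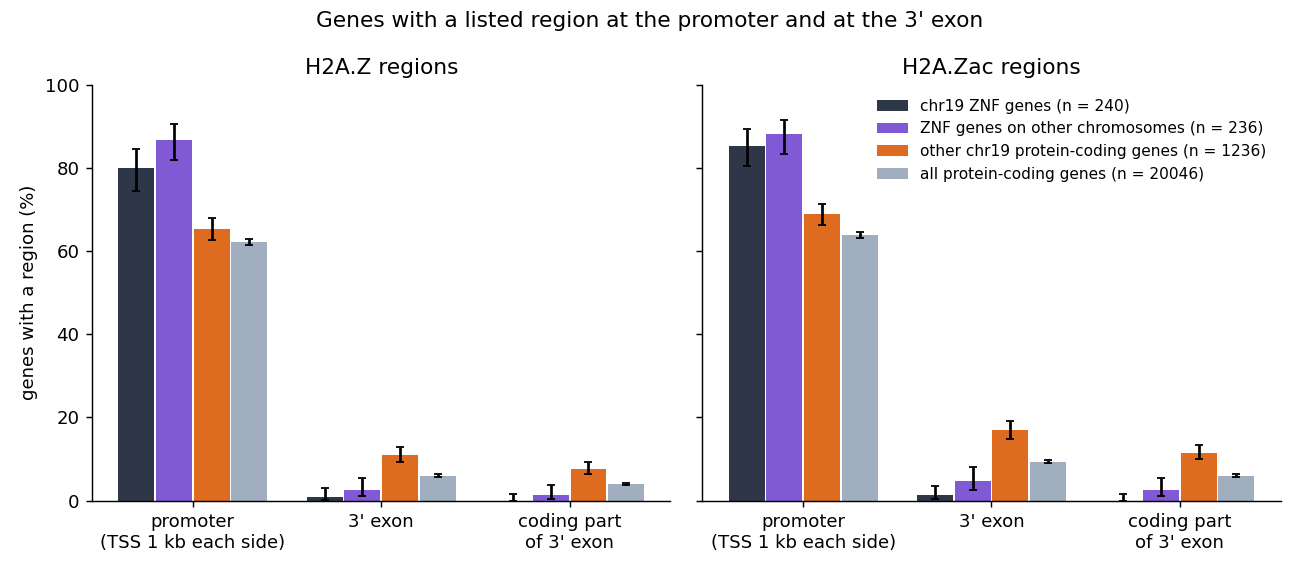
Share of genes (%) with at least 1 listed region of H2A.Z (left) or H2A.Zac (right) at the promoter, the 3' exon and the coding part of the 3' exon, for 4 gene sets. Error bars are Wilson 95% confidence intervals of counting error. The ZNF genes on chromosome 19 stand at 80.0% and 85.4% at the promoter and at 0.833% and 1.25% at the 3' exon, and their bars for the coding part are at 0.

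At the promoters both directions of change were common. More promoters had lost than gained H2A.Z and more had gained than lost H2A.Zac, but neither split differed from equal numbers by more than counting error. For H2A.Z the order turned under a ratio cutoff of 5 (15 genes lost, 18 gained) and when cluster 8 of the genes, described further on, was left out (21 lost, 25 gained). A lost H2A.Z region was found at the promoter of 33 genes (13.75%, against 6.53% of all protein-coding genes) and a gained region at that of 25 (10.4%, against 13.9%). An unchanged H2A.Z region was found at 186 promoters (77.5%, against 59.6%). For H2A.Zac, 60 genes had a lost region (25%, against 16.6%), 77 a gained region (32.1%, against 36.6%) and 183 an unchanged region (76.25%, against 57.8%). Counted over all 240 genes, the shares with a lost region were thus above the background, while the intervals of the gained shares (7.16 to 14.9% for H2A.Z, 26.5 to 38.2% for H2A.Zac) include the share over all genes. In the 115 genes before 40 Mb, however, lost H2A.Z stood at 6.96% and gained H2A.Z at 20.9%, and gained H2A.Zac at 40%.

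These shares also depend on how many promoters had a region at all, which was examined after the values had been seen. Among promoters with an H2A.Z region, 17.2% (12.5 to 23.2%) had a lost and 13% (8.98 to 18.5%) a gained one, against 10.5% and 22.3% over all genes. Among promoters with an H2A.Zac region, 29.3% (23.5 to 35.8%) had a lost and 37.6% (31.2 to 44.4%) a gained one, against 26% and 57.3%. Unchanged regions were found at 186 of the 192 promoters with H2A.Z and at 183 of the 205 with H2A.Zac. Over all genes the counts were 11947 of 12461 and 11595 of 12819, which are about the same shares. On this base gained regions of both marks were less frequent than over all genes, and the share with lost H2A.Zac was close to theirs. The lower frequency of gained regions did not hold along the whole chromosome. For H2A.Z, 24 of the 87 promoters with a region before 40 Mb had a gained one (27.6%, 19.3 to 37.8%) and 1 of the 105 from there on. For H2A.Zac the gained share was 48.4% (38.6 to 58.3%) before 40 Mb, an interval that includes the share over all genes, and 28.2% (20.6 to 37.2%) from there on.

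Counted by region, 36 lost, 27 gained and 233 unchanged H2A.Z regions lay at these promoters, and 42.9% of the changed regions (31.4 to 55.1%) were gained. For H2A.Zac there were 63 lost, 81 gained and 217 unchanged regions, with 56.25% gained (48.1 to 64.1%). Over all protein-coding genes, 67.8% of the changed H2A.Z regions and 69.6% of the changed H2A.Zac regions at promoters were gained. The ZNF genes on other chromosomes stood at 74.6% and 76.6%, and the other genes of chromosome 19 at 27.5% and 54.4%. The H2A.Z share of the chromosome 19 ZNF genes pools stretches of the chromosome that differed, with 74.3% gained before 40 Mb and 3.57% from there on. For H2A.Zac they lay close to their neighbors.

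The ratios of lost regions were lower than in the other gene sets, and those of gained regions were close to them. The median ratio at the promoters was 4.72 for lost and 5.33 for gained H2A.Z regions, and 6.29 and 6.43 for lost and gained H2A.Zac regions. Over all genes the medians were 5.45 and 4.99 for H2A.Z, and 7.29 and 6.02 for H2A.Zac. Lost regions had medians of 6.01 (H2A.Z) and 8.38 (H2A.Zac) in the other genes of chromosome 19, and of 6.19 and 7.42 in the ZNF genes on other chromosomes. For gained regions these medians were 4.82 and 6.03, and 5.39 and 5.99. Lost H2A.Zac regions were also narrower at the chromosome 19 ZNF promoters, with a median width of 461 bp. It was 513.5 bp in the ZNF genes on other chromosomes, 621.5 bp over all genes and 719 bp in the other genes of chromosome 19. The part of width in the lower ratio was not tested. The highest ratios at the ZNF promoters were 8.59 for lost and 17.5 for gained H2A.Z, and 19.6 for lost and 67.9 for gained H2A.Zac.

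The marks were next compared promoter by promoter. Both marks had a region at 192 promoters, neither at 35, H2A.Zac alone at 13 and H2A.Z alone at 0. No change in either mark was found at 66 genes (27.5%, against 14.6% of all genes). This share was 17.4% before 40 Mb and 36.8% from there on. It leaves out promoters with neither mark, which were 14.58% of these genes and 33.3% of all genes. Both marks were lost at 26 (10.8%, against 4.25%) and both gained at 17 (7.08%, against 9.79%). These shares differed along the chromosome, with 5.22% lost and 13.9% gained before 40 Mb, and 16.0% and 0.8% from there on. At 24 promoters H2A.Zac was lost where H2A.Z had unchanged regions only, and at 41 it was gained there (10% and 17.1%, against 6.06% and 20.04% of all genes). Thus 65 promoters had unchanged regions only for both marks and 1 more had an unchanged H2A.Zac region and no H2A.Z region.

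Opposite directions were found at 3 promoters (1.25%, against 0.748% of all genes). At ZNF700 and ZNF675, H2A.Z was gained and H2A.Zac lost, and at ZNF567 the reverse was found. Where regions of the marks covered the same bases (at least 25% of a region's length), no such case was left. Of 36 lost H2A.Z regions, 21 lay on a lost H2A.Zac region and 0 on a gained one. Of 27 gained H2A.Z regions, 19 lay on a gained H2A.Zac region and 0 on a lost one.

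Lost and gained regions lay on different sides of the TSS. This was looked at after the values had been seen, in the 207 promoters with no second protein-coding TSS within 1 kb. Of 55 lost H2A.Zac regions, 44 (80.0%, 67.6 to 88.5%) were centered upstream of the TSS, at a median of -360.5 bp, and 1 covered the TSS itself. Of 63 gained H2A.Zac regions, 12 (19.05%, 11.2 to 30.4%) were centered upstream, the median was 227.5 bp downstream, and 35 covered the TSS. H2A.Z had the same order, with 27 of 33 lost regions (81.8%, 65.6 to 91.4%) and 4 of 21 gained regions (19.05%, 7.67 to 40%) upstream. Unchanged regions lay between these, with 41.4% (H2A.Z) and 36.0% (H2A.Zac) centered upstream.

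The order was the same in the other gene sets, with a narrower gap over all genes. There, 66.5% (64.8 to 68.1%) of lost and 38.9% (37.7 to 40.05%) of gained H2A.Zac regions were centered upstream, and 63.5% and 41.2% for H2A.Z. The other genes of chromosome 19 had 65.1% and 36.1% for H2A.Zac, and for H2A.Z 59.2% (51.9 to 66.2%) and 45.0% (33.1 to 57.5%), intervals that overlap. The ZNF genes on other chromosomes had 69.6% and 38.7% for H2A.Zac, and for H2A.Z 92.3% of 13 lost and 33.3% of 39 gained regions, a gap about as wide as on chromosome 19. Within the ZNF genes the H2A.Zac shares were 80.0% lost and 11.4% gained for genes before 40 Mb, and 80.0% and 28.6% for genes beyond it. Both stretches of the chromosome thus showed the order.

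**Figure D2:**
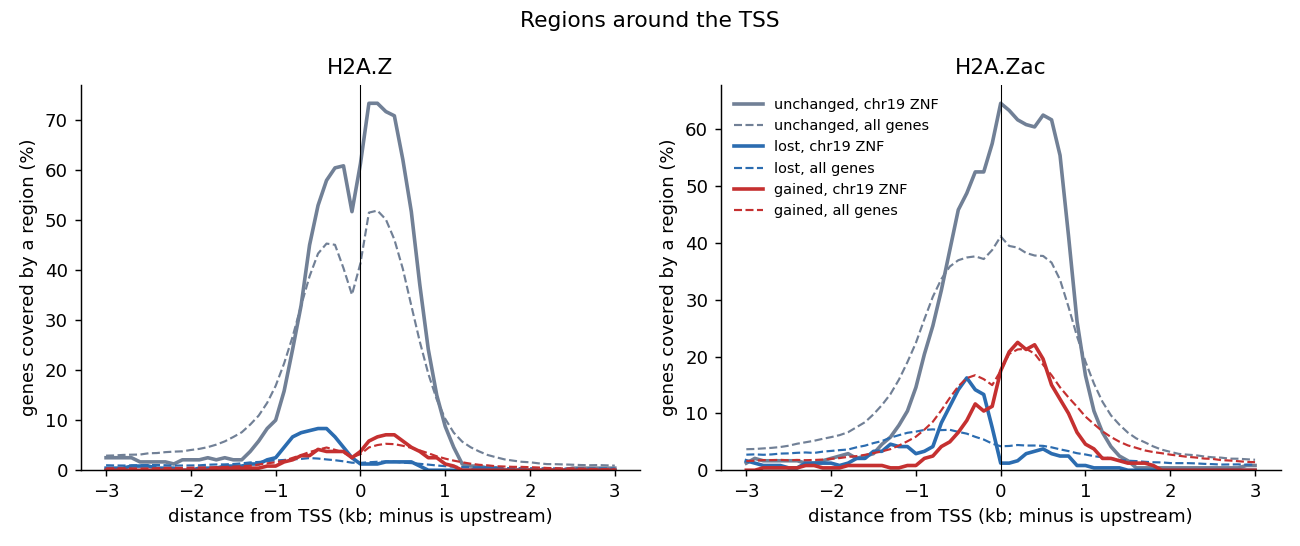
Share of genes (%) covered by a lost, gained or unchanged region at each distance from the TSS (kb, negative values upstream), for H2A.Z (left) and H2A.Zac (right). Solid lines are the ZNF genes on chromosome 19 and dashed lines all protein-coding genes. Lost H2A.Zac regions cover 16.2% of the ZNF genes 400 bp upstream (6.44% of all genes) and 1.25% at the TSS, while gained H2A.Zac regions cover 22.5% at 200 bp downstream (21.3% of all genes).

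The 3 promoters with the highest ratios of lost H2A.Zac showed this arrangement. At ZNF554, the lost H2A.Z region (chr19:2819232-2819741, ratio 7.83) and the lost H2A.Zac region (chr19:2819246-2819815, ratio 19.6) ended before the TSS, and the latter reached into the bases printed above. Unchanged regions of both marks began close to the TSS and ran downstream, with ratios of 0.461 and 0.578. At ZNF600, lost H2A.Z (ratio 8.07) and lost H2A.Zac (chr19:52786816-52787487, ratio 12.9) lay upstream and unchanged regions downstream. ZNF766 had the same order, with ratios of 4.23 for lost H2A.Z and 12.0 for lost H2A.Zac. In these 3 genes the change was on the side from which the printed sequences come, and the transcribed side had unchanged regions of both marks.

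ZNF507 had the highest ratio of lost H2A.Z at a promoter, 8.59 (chr19:32344682-32345549), and a further lost region with a ratio of 8.92 lay upstream of the window. Its H2A.Zac region at the promoter was unchanged, at 0.573. A gained H2A.Zac region with a ratio of 4.31 lay far downstream, within the gene. At ZNF582, lost regions lay on both sides of the TSS for H2A.Z, with ratios of 6.87 downstream and 4.51 upstream, and the lost H2A.Zac region (ratio 10.3) was downstream.

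The highest ratios of gained regions belonged to the bidirectional promoter of ZNF829 and ZNF568. The mouse counterpart of ZNF568 is a KRAB repressor needed in early development. The H2A.Z region there (chr19:36915341-36917423, 2083 bp) had a ratio of 17.5, and the H2A.Zac region (chr19:36915394-36917448, 2055 bp) had a ratio of 67.9. Both covered the interval printed above and both TSSs, and neither gene had an unchanged region. In the body of ZNF568, a second pair of gained regions was centered 56893 bp (H2A.Z) and 56823 bp (H2A.Zac) from its TSS, with ratios of 6.79 and 26.2. The whole of what was listed at these genes was thus higher in ΔTRRAP.

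ZNF91 encodes a repressor of SVA retrotransposons with 31 fingers. Its promoter had a gained H2A.Zac region with a ratio of 37.0 (chr19:23394334-23395520, 1187 bp), and no H2A.Z region was listed within 2 kb of the gene. ZNF121 had gained regions of both marks downstream of the TSS, with ratios of 7.74 for H2A.Z and 7.18 for H2A.Zac, and unchanged regions of both marks upstream. A lost H2A.Zac region (ratio 7.05) lay further upstream, outside the promoter window. At the promoter itself the changed regions were thus downstream at ZNF121 and upstream at ZNF554.

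Of the 13 promoters with H2A.Zac and no H2A.Z, 11 had a gained region (84.6%), ZNF493 a lost and ZNF85 an unchanged region. Over all genes, 453 of 907 such promoters (49.9%) had a gained region. Besides ZNF91, the ratios of the gained regions ran from 4.52 (ZNF470) to 8.95 (ZNF606). The cluster around ZNF91 held 7 of the 13. The authors' filter kept only regions in reproducible peaks of a mark, so a promoter without an H2A.Z region may still carry H2A.Z below that limit.

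At 7 promoters (2.92%, against 4.41% of all genes) H2A.Zac was both lost and gained. In the 3 with the highest lower ratio, ZNF440, ZNF816 and ZNF429, the lost region lay upstream of the TSS and the gained region downstream. The ratios were 6.77 lost and 6.72 gained at ZNF440, 6.16 and 5.76 at ZNF816, and 9.45 and 4.79 at ZNF429. At ZNF429 a gained H2A.Z region (ratio 5.04) lay downstream as well, while at ZNF816 a lost H2A.Z region (ratio 5.62) lay upstream.

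**Figure D3:**
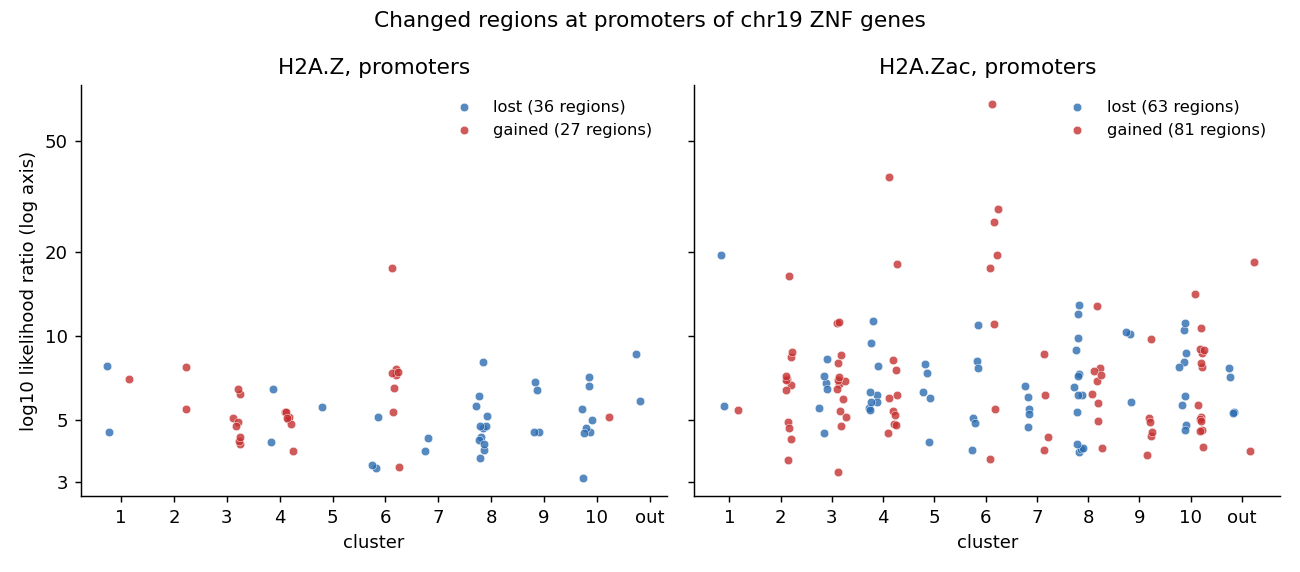
Log10 likelihood ratio (log axis) of each lost (blue) and gained (red) region at a promoter of a ZNF gene on chromosome 19, by cluster from the short arm to the end of the long arm, for H2A.Z (left) and H2A.Zac (right). Points are single regions. The highest point is the gained H2A.Zac region of ZNF829 and ZNF568 in cluster 6, at 67.9, and gained H2A.Z regions are rare to the right of cluster 6.

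The genes fall into 10 clusters of at least 5 members with gaps of at most 500 kb between neighbors, which hold 228 genes and leave 12 outside. Numbered from the end of the short arm, the clusters differed in the direction of both marks. For H2A.Z, up to cluster 6, gained regions were found at more promoters than lost regions in clusters 2, 3, 4 and 6. Beyond it, nearly every changed promoter was on the lost side.

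In genes that start before 40 Mb (115 genes), 9 lost and 26 gained H2A.Z regions lay at promoters, a gained share of 74.3% (57.9 to 85.8%). In the 125 genes from 40 Mb on there were 27 lost and 1 gained, a share of 3.57%. The other genes of chromosome 19 changed between the same stretches from 42.4% to 6.31%, so the contrast was also found in the neighbors of the ZNF genes. For H2A.Zac the gained share at the ZNF promoters was 61.8% before 40 Mb (29 lost, 47 gained) and 50% beyond it (34 lost, 34 gained), and in the other genes it was 60.4% and 42.9%. The boundary at 40 Mb was chosen with earlier results of these data known. The input libraries were not analysed here.

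Cluster 2 (8.51 to 9.79 Mb, 13 genes from ZNF414 to ZNF846) had gains and no losses of H2A.Zac at its promoters. A gained H2A.Zac region was found at 10 of its 13 promoters and a lost region at 0, while H2A.Z was unchanged at 11 and gained at 2. Over all genes 36.6% of promoters had gained H2A.Zac, and 57.3% of those with an H2A.Zac region. Gained H2A.Z was found at 13.9% of all promoters, near the 2 of 13 here. The highest ratio was 16.4, at ZNF560, followed by 8.74 at ZNF426 and 8.41 at ZNF559. Of the 15 other genes of this stretch, 10 had no H2A.Zac region at the promoter, and of the 5 with a region 4 had a gained one. Outside the promoters, 3 lost H2A.Zac regions lay at the genes of this cluster, 1 at ZNF121 (ratio 7.05) and 2 at ZNF846. The neighboring cluster 3 (11.5 to 12.6 Mb, 25 genes) had 7 promoters gained and 0 lost for H2A.Z, against 13.9% and 6.53% over all genes. Of its 25 promoters, 14 had a gained and 6 a lost H2A.Zac region. Counted over all promoters, these were larger shares than the 36.6% gained and 16.6% lost over all genes. Only 3 of the 25 had no H2A.Zac region, however. Over all genes, 57.3% of the promoters with an H2A.Zac region had a gained and 26% a lost one. Among promoters with a region, both shares in cluster 3 thus lay near the background. ZNF563 had the highest ratio there, 11.2 for gained H2A.Zac, together with gained H2A.Z (ratio 4.203). Of the 14 other genes there, 3 had gained and 1 lost H2A.Z at the promoter, and 4 had gained and 4 lost H2A.Zac.

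Cluster 4 (19.7 to 24.1 Mb, 37 genes) is the stretch of recently duplicated genes near the centromere that includes ZNF91, ZNF93 and ZNF208. Many of its promoters were unoccupied, with no H2A.Z region at 20 of 37 and no H2A.Zac region at 13. ZNF208 was among the genes with neither mark. Among the occupied promoters of this cluster, 6 had a gained and 2 a lost H2A.Z region, and 11 had a gained and 9 a lost H2A.Zac region. For H2A.Z, 22.3% of the promoters with a region over all genes had a gained and 10.5% a lost one. Over all genes 57.3% of the promoters with an H2A.Zac region had a gained one, a larger share than the 11 of 24 here. The 3 other genes of the stretch had 1 promoter with lost and 0 with gained H2A.Zac. The highest lost ratio for H2A.Zac in this cluster was 11.3, at ZNF708, and the second highest gained ratio 18.1, at ZNF737. The promoters of cluster 4 had a median GC content of 56.0%, the second lowest of the clusters after cluster 7, against 59.3% over all 240 genes.

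Cluster 6 (36.2 to 37.8 Mb, 24 genes) held 4 of the 5 highest ratios of gained H2A.Zac at the ZNF promoters. After ZNF829 and ZNF568 these were ZNF345 at 28.5, ZNF790 at 25.6 and ZNF875 at 19.6. All these promoters also had gained H2A.Z regions, with ratios of 7.59 at ZNF345, 6.51 at ZNF790 and up to 7.44 at ZNF875. Of the 8 other genes there, 2 had lost and 1 gained H2A.Z at the promoter, and 4 had lost and 2 gained H2A.Zac. Losses were also found at ZNF genes of this cluster. The H2A.Zac region at ZNF607 had a lost ratio of 10.97, and 6 promoters in all had a lost H2A.Zac region against 9 with a gained one. Over all genes 16.6% and 36.6% had these, so the gained count, 9 of 24, lay near the background on this base. Only 2 of the 24 had no H2A.Zac region. Among promoters with a region the gained share over all genes was 57.3%, larger than in this cluster. The small cluster 5 (34.7 to 35 Mb, 5 genes) had 4 promoters with lost H2A.Zac, with ratios from 6.02 at ZNF30 to 7.93 at ZNF599, and 0 with gained H2A.Zac.

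Cluster 7 (43.5 to 44.5 Mb, 23 genes) had unchanged H2A.Z regions only at 21 promoters, a lost region at 1 and a gained region at 0, against 6.53% lost and 13.9% gained over all genes. Of the 14 other genes there, 5 had lost and 0 gained H2A.Z at the promoter. For H2A.Zac, 5 ZNF promoters of this cluster had a lost and 4 a gained region, against 16.6% and 36.6% over all genes. The highest changed H2A.Zac ratio there was 8.58, gained at ZNF235. The KRAB pattern was matched in 2 genes of this cluster. The pattern misses degenerate copies, so genes without a match may still encode a KRAB domain. The promoters of the cluster had a median GC content of 55.7%.

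Cluster 8 (51.6 to 53.6 Mb, 39 genes) had 12 promoters with lost H2A.Z and 0 with gained H2A.Z, and 13 with a lost against 7 with a gained H2A.Zac region. Among the 15 other genes of the stretch, 3 had lost and 0 gained H2A.Z, and 3 had lost and 2 gained H2A.Zac. Over all genes gained regions were the more frequent direction for H2A.Zac (36.6% against 16.6% lost) and for H2A.Z (13.9% against 6.53% lost). ZNF600 and ZNF766 belong to this cluster. ZNF320 had lost H2A.Z (ratio 6.11) and lost H2A.Zac (ratio 9.80), and ZNF28 lost H2A.Zac with a ratio of 8.90. Gains of H2A.Zac were present as well, with the highest ratio of 12.8 at ZNF534. In cluster 8 more promoters thus had lost than gained regions of each mark, by few genes for H2A.Zac.

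Clusters 9 and 10, at the end of the long arm, had more promoters with lost than with gained H2A.Z, and H2A.Zac changed there in both directions. Cluster 9 (55.5 to 56.7 Mb, 16 genes) had 3 promoters with lost and 0 with gained H2A.Z, and 3 with lost and 5 with gained H2A.Zac. Of the 23 other genes there, 2 had lost and 0 gained H2A.Z, and 2 had lost and 2 gained H2A.Zac. Cluster 10 (57.2 to 58.5 Mb, 41 genes) had 8 with lost and 1 with gained H2A.Z, and 9 with a lost and 14 with a gained H2A.Zac region. Its 25 other genes had 3 promoters with lost and 0 with gained H2A.Z, and 3 with lost and 7 with gained H2A.Zac. Counted over all promoters, the H2A.Zac counts of both clusters lay near the 16.6% lost and 36.6% gained over all genes. Only 3 promoters of cluster 9 and 4 of cluster 10 had no H2A.Zac region. Over all genes 57.3% of the promoters with an H2A.Zac region had a gained one, a larger share than in either cluster. For H2A.Z the shares over all genes were 6.53% lost and 13.9% gained, the opposite order to that in both clusters. ZNF586 had the highest lost H2A.Z ratio of cluster 10, 7.14, together with lost H2A.Zac at 10.5. ZNF418 had the single promoter with gained H2A.Z, at 5.11, and gained H2A.Zac at 14.1. The direction of H2A.Zac thus varied between neighboring genes where that of H2A.Z hardly did.

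**Figure D4:**
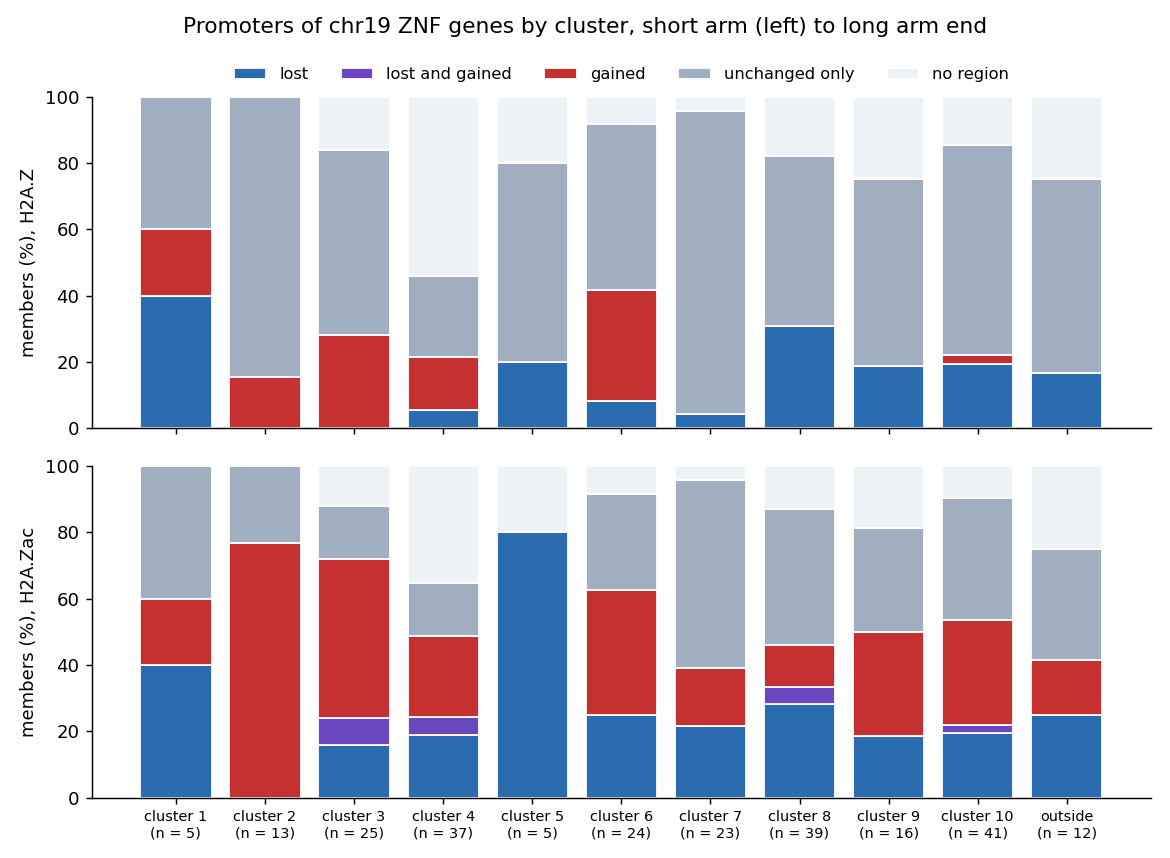
Share of the ZNF genes of each cluster (%) by the class of the regions at the promoter, for H2A.Z (upper) and H2A.Zac (lower), ordered along chromosome 19. In cluster 2, 10 of 13 genes gained H2A.Zac and 0 lost it, in cluster 4, 20 of 37 had no H2A.Z region, and in cluster 8, 12 of 39 lost H2A.Z and 0 gained it.

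Genes with a known role did not share a direction. ZNF274, which brings SETDB1 to the 3' ends of other zinc finger genes, had unchanged regions at its promoter for both marks, with ratios of 0.567 for H2A.Z and 0.442 for H2A.Zac. ZNF304, a KRAB protein linked to TRIM28-dependent silencing, and the KRAB gene ZNF649 were unchanged for both marks too. ZNF93, a repressor of L1 retrotransposons, was unchanged at the promoter, but regions 43137 and 43099 bp downstream of its TSS were gained for H2A.Z (ratio 6.29) and H2A.Zac (ratio 6.06). The imprinted gene ZNF331 had no region at its canonical TSS, and unchanged regions of H2A.Z and H2A.Zac lay at -17248 and -17312 bp, within the gene's annotated span. ZNF536, a neural gene with no match to the KRAB pattern, had no region at the promoter and a lost H2A.Z region (ratio 5.93) far downstream in its body. ZNF382, a KRAB repressor, had no region at all within 2 kb. Of these genes, then, ZNF91 alone had a changed promoter.

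A few genes carried many or wide regions away from the promoter. ZNF627 had the most, and its widest was a gained H2A.Zac region of 3723 bp with a ratio of 9.94 inside its annotated span. The span of ZNF627 also holds the promoters of ELOF1 and ACP5, and several of its regions lie there. ZNF846 had an unchanged H2A.Zac region of 3273 bp next to gained regions with ratios of 6.99 and 21.4 and lost H2A.Zac regions with ratios of 4.81 and 5.19, all upstream of its canonical TSS and within its span. The third widest H2A.Zac region, 2931 bp and unchanged, covered the promoter that ZNF576 shares with IRGQ. ZNF580, which lies next to ZNF581, had lost H2A.Zac at the promoter with a ratio of 10.2 and unchanged H2A.Zac downstream of the TSS. Counted over all 240 genes, 12 H2A.Z and 19 H2A.Zac regions lay at the promoter of another gene, and 67 and 99 lay in no promoter and no 3' exon.

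Sequence features of the promoters were counted as well. Within 250 bp upstream to 50 bp downstream of the TSS, the 7 letters CCGGAAG, which hold the GGAA core bound by ETS factors, were present on either strand in 105 of 240 ZNF promoters of chromosome 19 (43.8%). The share was 14.1% of all protein-coding promoters, 34.7% of the ZNF promoters of other chromosomes and 15.5% of the other promoters of chromosome 19. CCAAT, on either strand, was found in 52.1% against 36.1% of all promoters, and TATAAA in 2.92% against 9.71%. ATGGCGGC, the core of the YY1 motif, was found in 5.00% against 4.56%. The ZNF promoters of other chromosomes had 41.5% for CCAAT, 3.39% for TATAAA and 4.24% for ATGGCGGC. The low share of TATAAA was thus common to both ZNF sets. CCAAT differed along chromosome 19, with 65.2% of the ZNF promoters before 40 Mb and 40% from there on, which is near the share of all promoters. CCGGAAG differed in the other direction, with 34.8% before 40 Mb and 52.0% from there on. The former is near the share of the ZNF promoters of other chromosomes. None of these words contains another.

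By class of H2A.Zac, CCGGAAG was found in 39.6% of the 53 promoters with lost regions, 48.6% of the 70 with gained regions, 41.3% of the 75 with unchanged regions only and 40% of the 35 with none. For H2A.Z it was 48.5% of the lost, 44% of the gained and 41.0% of the unchanged promoters. Among the 7 promoters with both directions of H2A.Zac it was found in 5 (71.4%). Apart from these 7, the motif was about as frequent in each class as over all 240 genes. ATGGCGGC was found in only 12 of the 240 promoters, too few to set the classes against each other. Median GC content was 62.0% in the promoters with lost and 58.0% in those with gained H2A.Z, and the ratio of observed to expected CpG was 0.814 and 0.652. For H2A.Zac the corresponding values were closer, 60% and 60.5% for GC and 0.781 and 0.753 for CpG. Position moved with these values, since all ZNF promoters before 40 Mb had medians of 59% GC and 0.652 for CpG, and those from 40 Mb on 61% and 0.828. Its part in the difference was not tested. A match of letters is a description of the sequence, and binding was not measured. The number of fingers was alike too, with medians of 12 in genes with lost, 13 in genes with gained and 13 in genes with unchanged H2A.Zac.

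The genes of the KRAB corepressor pathway were given by a list of 15, all found in the annotation. For H2A.Zac, 9 of 15 promoters had gained regions only, 2 lost, 1 both, 2 unchanged and 1 none. The highest gained ratios were 15.6 at CBX5 and 11.2 at CBX3, which encode HP1 proteins that bind methylated H3K9. SETDB1, the methyltransferase, had a gained ratio of 5.12, and ATF7IP, its partner, one of 6.85. TASOR and PPHLN1, subunits of the HUSH silencing complex, had gained ratios of 5.28 and 6.31. TRIM28, the corepressor that KRAB domains bind, is itself on chromosome 19 and had lost H2A.Zac at 5.47 with unchanged H2A.Z. SMARCAD1 had lost H2A.Zac as well, at 5.53. With CBX1, which had both directions, 10 of the 14 promoters with an H2A.Zac region had a gained one (71.4%, 45.4 to 88.3%), against 57.3% of such promoters over all genes, so on 14 promoters the list lay near the background.

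For H2A.Z, 9 of the 15 were unchanged, 3 gained, 1 lost and 2 had no region, which lay near the 13.9% gained and 6.53% lost over all genes. The gained promoters were those of CBX3 (ratio 4.14), PPHLN1 (4.72) and DNMT1 (5.28), the maintenance DNA methyltransferase. UHRF1, which recruits DNMT1 to replicated DNA, had lost H2A.Z at 5.64 and no H2A.Zac region.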

How the data were processed

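H2A.Z and H2A.Zac ChIP-seq lists of K562 cells with WT or ΔTRRAP EP400 were used as deposited. Per the paper's methods and the submitters' processing notes, the authors aligned reads to hg38 (Bowtie2 2.4.5), called peaks and compared the lines after merging the 2 replicates (MACS2 2.2.7.1 bdgdiff, cutoff 3), and kept regions with at least 25% of their length (bedops) in peaks reproducible at an IDR threshold of 0.05, which had been merged with bedtools 2.30.0. The score column deposited by the authors is the log10 likelihood ratio of bdgdiff. Read counts, signal tracks and inputs were not analysed here, and depth is unknown here.

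Genes, exons and canonical TSSs came from GENCODE release 44, and sequence from hg38. A region counted at a window with an overlap of 1 bp or more. Regions of the lists were compared between marks at an overlap of 25%. A gene can have regions of several classes. Shares have Wilson 95% intervals (scipy 1.17.1), neighboring regions are not independent, and no test was made, since merged lists hold no value per replicate. Zinc fingers, linkers and KRAB boxes were found by residue patterns, which miss degenerate copies. The calculations were tested on simulated data. The work was done in Python 3.11.15 with pandas 2.3.3, numpy 2.4.6 and matplotlib 3.10.9, and samtools 1.23.1 read the genome.

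The genes named are, for each mark and direction, the 3 with the highest ratio at the promoter or at the 3' exon, the highest changed H2A.Zac promoter of each cluster, the 3 with the most regions, the 3 with the widest H2A.Zac region, 3 with both directions at the promoter, and 8 with a known role. Other genes were named after their values were seen. The members, lists and comparisons were chosen with earlier results of these data known. The alternatives were other overlaps, cutoffs, windows, TSSs, gene lists and cluster gaps, merged regions, base pairs, and leaving out each cluster.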

Additional observations from a re-analysis of the deposited data

How the results depend on the processing

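Of 249 values under alternatives, 227 stayed within the main value's Wilson interval and 22 moved beyond it. At a ratio cutoff of 5, the gained share of changed H2A.Z regions at promoters was 55.9%, 6.25% of the genes had lost and 7.5% gained H2A.Z, which turned their order, and 23.8% gained H2A.Zac. At a cutoff of 10, only 1 of 2 changed H2A.Z regions at the genes (50%) and 1 of 1 at promoters (100%) were gained, and the shares of genes were 0.0% for lost and 0.833% for gained H2A.Z, and 3.75% and 6.67% for H2A.Zac. With genes before 40 Mb only, the gained shares were 65.2% at the genes and 74.3% at promoters for H2A.Z and 62.4% at the genes for H2A.Zac, and 6.96% of genes had lost H2A.Z, 20.9% gained H2A.Z and 40% gained H2A.Zac. Counted in base pairs, H2A.Zac was gained in 61.2% at the genes and 65.4% at promoters. Without the flank of 2 kb, the gained share at the genes was 50.9% for H2A.Z and 71.1% for H2A.Zac, against 38.4% and 53.2% with it. Shares centered upstream moved to 92.3% for lost H2A.Z at a cutoff of 5, to 100% before 40 Mb, and to 8.33% for gained H2A.Zac at a cutoff of 10. The causes were not tested.

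Leaving out 1 cluster at a time gave gained shares at promoters of 34.5 to 52.9% for H2A.Z and 52.3 to 59.5% for H2A.Zac, and at the genes of 31.9 to 45.8% and 49.7 to 57.2%. Gaps of 250 kb or 1 Mb between clusters kept their number within 1.5 times. The gained share of H2A.Z at 3' exons has no value, since no changed region lies there. No paired analysis was possible because the lists hold no value per replicate, and for the same reason no replicate could be left out.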

Other observations

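Besides the ZNF symbols, 12 protein-coding genes of chromosome 19 have symbols beginning with ZFP, ZSCAN, ZIM or ZIK followed by digits. Of these, 7 had regions of both marks at the promoter and 5 had none (ZFP28, ZIM2, ZIM3, ZSCAN1 and ZSCAN4). ZFP14 had lost H2A.Z (ratio 5.29) and lost H2A.Zac (ratio 11.2), and H2A.Zac was lost at ZFP82 (ratio 5.03) and ZFP30 (ratio 3.79). H2A.Zac was gained at ZIK1 with a ratio of 18.1 and at ZSCAN18 with a ratio of 16.1. ZFP36, whose protein binds AU-rich elements of mRNA and is not a C2H2 factor, and ZSCAN22 had unchanged regions only.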
